A study of Mus musculus with 6 samples.

Results

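The genes described here are the collagens, the genes whose symbol has the form Col, a number, the letter a and a number. The count table holds 44 of them among 52550 genes, and the splicing table holds 90 of their events among 40961. Collagens are matrix proteins made of 3 alpha chains wound into a triple helix, which needs a glycine in every repeat of the chain. In the brain they lie mainly in the meninges, the walls of blood vessels and the basement membranes, while a few members that span the cell membrane are made by neurons. The chains are grouped below by the structure they build.

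RNA was sequenced from the hippocampus of 3 control and 3 L-DL KD samples from male C57BL/6 J mice. L-DL is the long form of hnRNPDL, a protein that binds RNA and acts in splicing. Both groups received a virus in the CA1 areas on both sides at 8 weeks of age, an adeno-associated virus (AAV) with control shRNA or with L-DL shRNA. The study's methods give a higher titre for the control virus. The shRNA came from the H1 promoter, which is not specific to a cell type, and the virus carried zsGreen under the CamkIIα promoter, which is active in excitatory neurons. The labels call the controls wild type and the other samples hnRNPDL KD, and a description field calls the latter hnRNP DL-/-. The labels do not say whether each library came from 1 animal, so p-values measure the spread between these samples.

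Reads counted on genes numbered 16052529 to 16995425 per control library and 16525467 to 17913064 per L-DL KD library. Hnrnpdl itself, at 171 to 184 CPM (read counts scaled to a common library size) in the controls and 150 to 217 CPM in the libraries labelled L-DL KD, did not differ (log2 fold change 0.03 ± 0.12 (SE), edgeR adjusted p = 0.898), and a gene count does not separate its long form. Directions below are therefore those of the libraries labelled L-DL KD. Hippocampal excitatory neuron markers were present in every library, with a summed level of 6983 to 7378 CPM in the controls and 4027 to 4532 CPM in L-DL KD. Choroid plexus markers differed widely between libraries. The sum of 6 markers was 1711, 436 and 4622 CPM in controls 1 to 3 and 5168, 116 and 30.8 CPM in L-DL KD 1 to 3. Control 3 and L-DL KD 1 held the most of each group, and some results are given with and without these 2 libraries. Leaving them out does not free the comparison of these markers, since controls 1 and 2 remain above L-DL KD 2 and 3. In bulk tissue, more cells of a type and more RNA per cell cannot be told apart.

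Many collagen genes were higher in L-DL KD. The summed level of the 44 genes was 709, 579 and 773 CPM in controls 1 to 3 and 1633, 1038 and 1106 CPM in L-DL KD 1 to 3, and the groups did not overlap. Of the 42 members with enough counts to test, 21 (50.0%) rose past an adjusted p of 0.05, against 15.6% of the 17621 genes tested, and 3 (7.14%) fell, against 15.0% of all genes. The other 18 had no call, and Col10a1 and Col28a1 were too low to test. The median log2 fold change was 0.79 over the tested members and 0.0059 over all tested genes. A rise of at least 2-fold was called for 18 members, against 4.37% of all genes. The libraries did not overlap between groups for 25 members, 24 of them called, where 47.2% of all tested genes had groups apart. Every tested member had at least 1 library with 10 counts or more in each group, so none passed the filter through 1 group only. Among the 21 that rose, L-DL KD 1 was the highest of the L-DL KD libraries for 16, L-DL KD 2 for 1 and L-DL KD 3 for 4. Without control 3 and L-DL KD 1 together, 18 members rose and 3 fell, and all 18 were among the 21. Of the 3 that fell then, 2 were among the 3 that fell with all libraries. Col19a1 lost its call and Col8a2 gained a call.

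**Figure D1:**
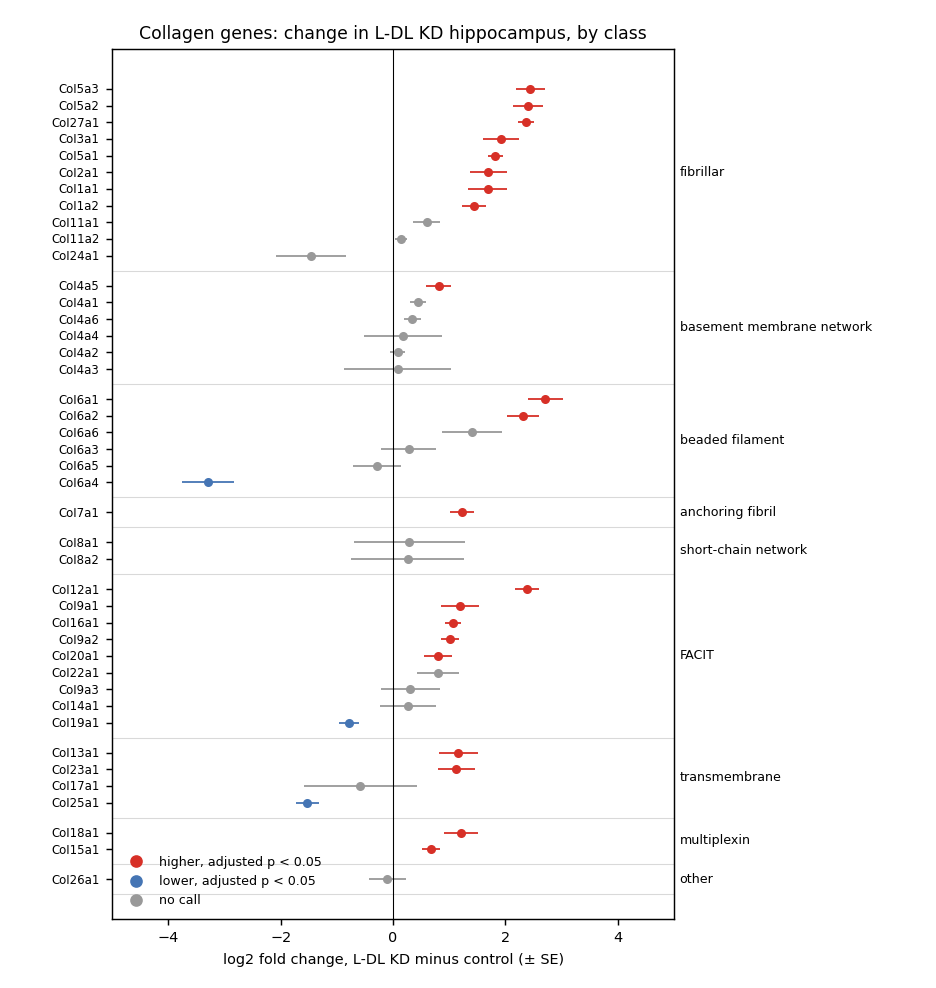
The log2 fold change of each tested collagen gene, L-DL KD minus control, with its standard error, grouped by class on the vertical axis. Red points are the 21 genes that rose, blue points the 3 that fell (Col6a4, Col25a1 and Col19a1) and grey points the 18 without a call.

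Counts by class are to be read against the 15.6% of all tested genes that rose and the 15.0% that fell. The fibrillar collagens, which build the cable-like fibrils of connective tissue, held 8 of the 21 risers. Of 11 tested, none fell, and Col11a1, Col11a2 and Col24a1 had no call. Their summed level was 134 to 167 CPM in the controls and 366 to 514 CPM in L-DL KD.

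The type V chains sit within collagen I fibrils and set their diameter. Col5a3 measured 7.77, 9.06 and 8.19 CPM in controls 1 to 3 and 63.0, 42.9 and 30.3 CPM in L-DL KD 1 to 3. It was 5.44-fold higher (log2 fold change 2.44 ± 0.26 (SE), edgeR adjusted p = 0.00048), with every L-DL KD library above every control. Col5a2 measured 8.94, 7.35 and 12.7 CPM in the controls and 69.4, 44.3 and 38.9 CPM in L-DL KD, a log2 fold change of 2.40 ± 0.27 (edgeR adjusted p = 0.00065). Here too L-DL KD 1 was the highest library and the groups lay far apart. Col5a1 measured 13.8, 11.1 and 14.0 CPM in the controls and 41.4, 43.1 and 52.6 CPM in L-DL KD, a log2 fold change of 1.82 ± 0.14 (edgeR adjusted p = 0.00018). Its L-DL KD libraries were close together, with L-DL KD 3 the highest.

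Collagens I and III are the main fibril formers of the meninges and of vessel walls. Col1a1 measured 18.7, 14.9 and 14.8 CPM in the controls and 81.1, 27.6 and 47.1 CPM in L-DL KD, a log2 fold change of 1.69 ± 0.35 (edgeR adjusted p = 0.0083). The L-DL KD libraries spread widely, with L-DL KD 1 at the top, and the log2 fold change was 1.15 without control 3 and L-DL KD 1. Col1a2 measured 24.7, 16.9 and 27.0 CPM in the controls and 72.9, 44.8 and 68.1 CPM in L-DL KD, a log2 fold change of 1.44 ± 0.22 (edgeR adjusted p = 0.0024). Col3a1 measured 8.999, 5.35 and 6.16 CPM in the controls and 35.7, 15.8 and 26.2 CPM in L-DL KD, a log2 fold change of 1.92 ± 0.32 (edgeR adjusted p = 0.0032). In all 3 genes L-DL KD 2 was the lowest of its group and still above every control.

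Col27a1 encodes a fibrillar chain known from cartilage. It measured 11.96, 9.77 and 14.4 CPM in the controls and 61.4, 68.4 and 56.5 CPM in L-DL KD, a log2 fold change of 2.37 ± 0.15 (edgeR adjusted p = 8.9e-05). It had the smallest adjusted p of the tested collagens, and its L-DL KD libraries lay close together. Col2a1, the main collagen of cartilage, was low at 2.40, 3.24 and 1.65 CPM in the controls and 9.70, 5.05 and 8.999 CPM in L-DL KD, a log2 fold change of 1.70 ± 0.33 (edgeR adjusted p = 0.0065). Col11a2, the fibrillar chain with the highest control level per length, measured 38.3, 39.3 and 49.7 CPM in the controls and 47.4, 48.6 and 44.2 CPM in L-DL KD, and the groups overlapped (log2 fold change 0.14 ± 0.11, edgeR adjusted p = 0.375).

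The beaded filament collagens of type VI surround cells and link basement membranes to the matrix. Of 6 tested, Col6a1 and Col6a2 rose, Col6a4 fell and Col6a3, Col6a5 and Col6a6 had no call. Col6a1 had the largest rise of any collagen, from 20.2, 9.59 and 24.3 CPM in the controls to 146, 112 and 94.2 CPM in L-DL KD (6.53-fold, log2 fold change 2.71 ± 0.31, edgeR adjusted p = 0.00071). Col6a2 measured 8.999, 5.83 and 8.76 CPM in the controls and 54.8, 27.0 and 35.2 CPM in L-DL KD, a log2 fold change of 2.31 ± 0.28 (edgeR adjusted p = 0.00096). Col6a3, the remaining chain of the classical trimer, behaved otherwise: it measured 24.5, 19.2 and 10.3 CPM in the controls and 35.7, 21.1 and 8.40 CPM in L-DL KD, and the groups overlapped. Its log2 fold change was 0.28 ± 0.48 (edgeR adjusted p = 0.707), and it was -0.57 without control 3 and L-DL KD 1. Col6a4 measured 11.5, 11.2 and 3.62 CPM in the controls and 0.937, 1.01 and 0.715 CPM in L-DL KD, a log2 fold change of -3.29 ± 0.47 (edgeR adjusted p = 0.0017). Control 3 lay below the other controls and above all L-DL KD libraries. The exons of Col6a4 overlap those of 2 other annotated genes, 1 of them antisense. Whether counting used strand is not given in the sources used here. Such overlaps hold for 13 members, 6 of them called: Col6a4 and the risers Col3a1, Col5a1, Col7a1, Col15a1 and Col20a1. The exons of Col9a3, which had no call, overlap those of the protein-coding gene Tcfl5.

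**Figure D2:**
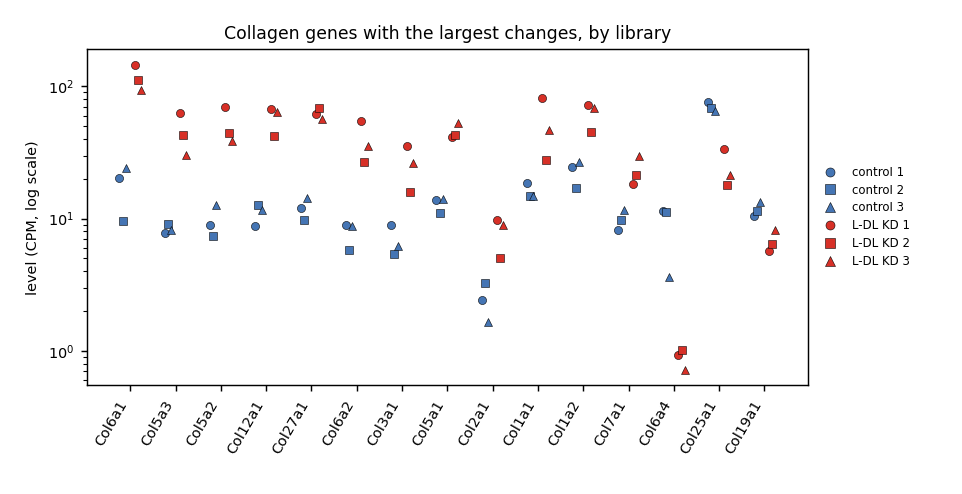
Level in CPM, on a log axis, of the 12 collagen genes with the largest rises and of the 3 that fell, in each of the 6 libraries (blue, control; red, L-DL KD; circle, square and triangle, replicates 1 to 3). For each gene the L-DL KD libraries lie apart from the controls, and control 3 is low for Col6a4.

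The network collagens of type IV are the core of basement membranes, with the chains of Col4a1 and Col4a2 the common form in brain vessels. Of 6 tested, 1 rose, Col4a5 (log2 fold change 0.81 ± 0.22, edgeR adjusted p = 0.026), a call lost without control 1, control 2 or L-DL KD 3 (adjusted p 0.070 to 0.097). A count of 1 in 6 is too small to set apart from the 15.6% of all genes that rose. Col4a1 measured 70.1, 61.0 and 67.2 CPM in the controls and 113, 75.9 and 80.5 CPM in L-DL KD. The groups lay apart, but the log2 fold change of 0.44 ± 0.15 missed the threshold (edgeR adjusted p = 0.055). It passed with DESeq2 (adjusted p = 0.017) and, by edgeR, with library size scaling, no filter or the replicate block (adjusted p 0.017 to 0.043). Without L-DL KD 1 or L-DL KD 2 it also passed (edgeR adjusted p 0.039 and 0.033), with a smaller change of 0.25 without L-DL KD 1. In the other alternatives it missed the threshold. Col4a2 measured 91.7, 68.8 and 91.4 CPM in the controls and 101, 76.2 and 89.2 CPM in L-DL KD, and the groups overlapped (log2 fold change 0.08 ± 0.14, edgeR adjusted p = 0.698). The 2 genes lie head to head on chromosome 8, where their annotated spans share 22 nt. Of 10 other basement membrane genes tested, for laminins, nidogens and perlecan, 8 rose and none fell, against 15.6% and 15.0% of all genes. Among the 8 was Hspg2, which encodes perlecan (log2 fold change 1.70 ± 0.25, edgeR adjusted p = 0.0020). Col7a1, the anchoring fibril of basement membranes, measured 8.20, 9.71 and 11.7 CPM in the controls and 18.2, 21.2 and 29.9 CPM in L-DL KD, a log2 fold change of 1.23 ± 0.21 (edgeR adjusted p = 0.0041).

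FACIT collagens have interrupted helices and attach to the surface of fibrils. Of 9 tested, 5 rose (Col9a1, Col9a2, Col12a1, Col16a1 and Col20a1) and Col19a1 fell. The call of Col9a1 held in 7 of 13 alternatives and was lost without control 3 and L-DL KD 1. Col12a1 measured 8.81, 12.8 and 11.7 CPM in the controls and 67.4, 42.5 and 63.7 CPM in L-DL KD, a log2 fold change of 2.38 ± 0.21 (edgeR adjusted p = 0.00025). Col20a1 measured 32.2, 26.4 and 31.3 CPM in the controls and 73.7, 48.7 and 33.4 CPM in L-DL KD, a log2 fold change of 0.80 ± 0.25 (edgeR adjusted p = 0.045). Its lowest L-DL KD library was close to the highest control, and the call was lost with 5 of the libraries or library pairs left out and with limma voom. Col19a1, which neurons including interneurons are known to make, measured 10.5, 11.4 and 13.3 CPM in the controls and 5.73, 6.39 and 8.23 CPM in L-DL KD, a log2 fold change of -0.79 ± 0.18 (edgeR adjusted p = 0.013). Without control 3 its adjusted p was 0.058. Col19a1 and Col9a1 lie end to end on chromosome 1, 9205 nt apart, and changed in opposite directions.

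The transmembrane collagens are anchored in the cell membrane and can be shed. Of 4 tested, Col13a1 (log2 fold change 1.16 ± 0.35) and Col23a1 (1.12 ± 0.33) rose, with edgeR adjusted p of 0.038 and 0.034. Both calls were lost under some alternatives: Col13a1 kept its call in 7 of 13 and lost it without control 3 and L-DL KD 1, and Col23a1 kept its call in 6 of 13 and lost it with limma voom. Col25a1, a neuronal collagen found with amyloid deposits, fell: it measured 75.6, 68.4 and 65.5 CPM in the controls and 33.4, 17.8 and 21.4 CPM in L-DL KD, a log2 fold change of -1.53 ± 0.21 (edgeR adjusted p = 0.0014). The groups did not overlap, and L-DL KD 1 was the highest of its group. Both multiplexins, the basement membrane proteoglycan collagens Col15a1 (log2 fold change 0.67 ± 0.16) and Col18a1 (1.20 ± 0.30), rose, with edgeR adjusted p of 0.014 and 0.019. Col15a1 lost its call without control 3 (adjusted p = 0.056), and Col18a1 without control 1 or control 2 (0.065 to 0.066).

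Some members followed the choroid plexus markers instead of the groups. They were picked after their values were seen. Col8a1, a short-chain network collagen, measured 9.92, 3.06 and 30.4 CPM in the controls and 43.3, 4.77 and 4.59 CPM in L-DL KD. Col8a2, its partner chain, measured 12.3, 5.83 and 24.3 CPM in the controls and 44.7, 3.70 and 2.09 CPM in L-DL KD. Col9a3, a FACIT chain, measured 52.4, 30.9 and 84.5 CPM in the controls and 130.5, 39.9 and 37.1 CPM in L-DL KD. It had the highest mean control level per length of all collagens, a rank that rests on control 3. Control 3 and L-DL KD 1 were the highest of their groups in each, as they were for Col4a3 and Col4a4. None of these 5 genes had a call. With these 2 libraries left out, Col8a2 was lower in L-DL KD, at a log2 fold change of -1.64 (edgeR adjusted p = 0.027). The libraries kept also differed in choroid plexus markers. Controls 1 and 2 held 1711 and 436 CPM, and L-DL KD 2 and 3 held 116 and 30.8 CPM. The part of choroid plexus RNA in these values was not tested.

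**Figure D3:**
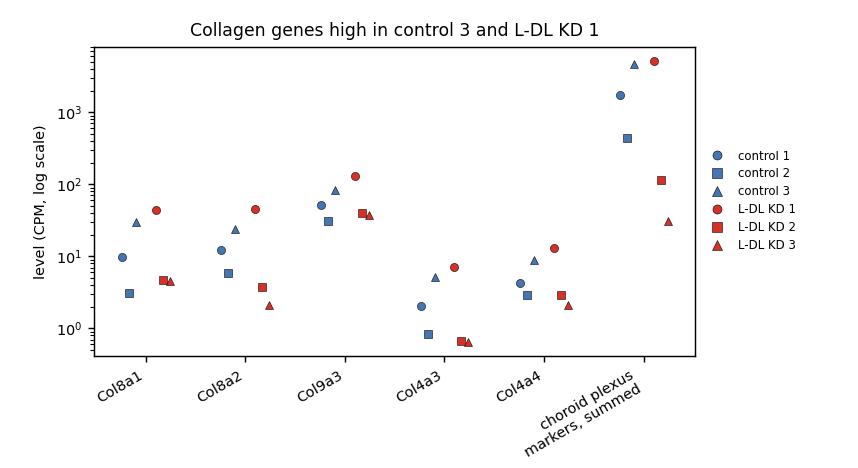
Level in CPM, on a log axis, of Col8a1, Col8a2, Col9a3, Col4a3 and Col4a4 beside the summed level of 6 choroid plexus markers, in each library (blue, control; red, L-DL KD; circle, square and triangle, replicates 1 to 3). For each gene control 3 and L-DL KD 1 are the highest libraries, as for the markers (4622 and 5168 CPM).

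Per kb of exon, the collagens spanned mean control levels from 0.0538 CPM per kb (Col6a6) to 14.5 CPM per kb (Col9a3). Col9a3, Col4a2 (12.7), Col4a1 (8.86), Col11a2 (6.17) and Col20a1 (5.83) had the highest means in the controls. The first place of Col9a3 rests on control 3, and in controls 1 and 2 Col4a2 was higher per kb. In L-DL KD, Col6a1 was the highest, at 26.8 CPM per kb from 4.12 in the controls. Ratios between chains that share a trimer are given as a description, since none of the 6 passed its test. The ratio of Col6a3 to Col6a1 per kb was 0.443, 0.732 and 0.155 in the controls and 0.0895, 0.0689 and 0.0327 in L-DL KD. The ratio of Col6a3 to Col6a2 was 1.89, 2.29 and 0.817 in the controls and 0.453, 0.546 and 0.166 in L-DL KD, and both sets of values lay apart. The ratio of Col4a1 to Col4a2 was 0.678, 0.786 and 0.652 in the controls and 0.996, 0.883 and 0.80 in L-DL KD, also apart. The ratios of Col1a1 to Col1a2, Col5a1 to Col5a2 and Col6a1 to Col6a2 overlapped between groups. Over the 6 ratios, the 3 that lay apart had a two-sided exact permutation p of 0.1, the smallest that 3 against 3 allows, and 0.2 after adjustment, so this test could not reach 0.05.

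**Figure D4:**
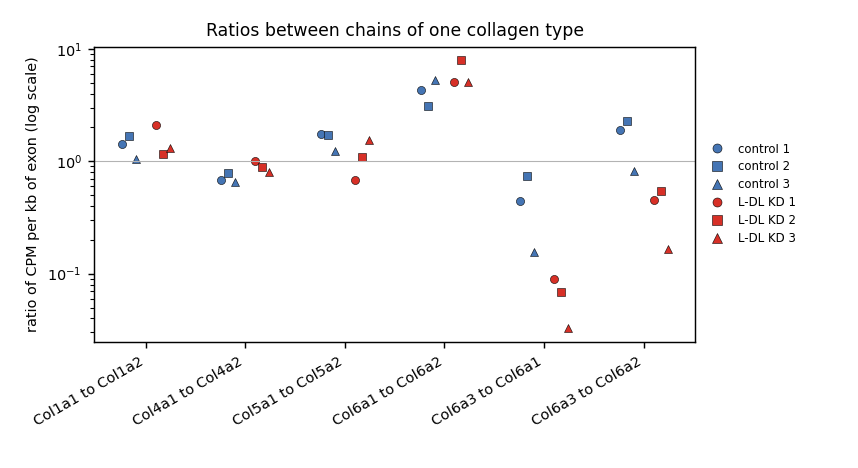
Ratio of the levels per kb of exon of 2 chains of a collagen type, on a log axis, in each library (blue, control; red, L-DL KD; circle, square and triangle, replicates 1 to 3; the line marks equal levels). The Col6a3 ratios are lower and the Col4a1 to Col4a2 ratio higher in all L-DL KD libraries.

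The windows before the start of risers are shown because these genes rose together. RefSeq (GRCm38.p6) gave a window for 35 of the 44 members, 17 of them risers. Motifs were looked for on both strands in the 250 bases before the start. The letters CCAAT form the motif that the factor NF-Y is known to bind. Factors of the Sp1 family bind GC boxes, searched here as GGGCGG in these windows. A TATA box, which places the start of transcription in some promoters, was searched as TATAAA. Overlapping matches were allowed. Capitals mark matches, read on either strand, in the 4 windows of the largest rises that hold no annotated exon. The Col27a1 window lies before a RefSeq start inside the GENCODE span of the gene, in an intron.
Col5a3, chr9:20815068-20815317, minus strand: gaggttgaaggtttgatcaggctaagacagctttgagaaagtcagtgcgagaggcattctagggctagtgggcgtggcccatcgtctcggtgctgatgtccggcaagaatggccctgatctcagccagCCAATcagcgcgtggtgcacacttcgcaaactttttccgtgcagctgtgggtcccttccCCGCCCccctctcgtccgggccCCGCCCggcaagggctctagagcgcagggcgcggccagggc
Col27a1, chr4:63215162-63215411, plus strand: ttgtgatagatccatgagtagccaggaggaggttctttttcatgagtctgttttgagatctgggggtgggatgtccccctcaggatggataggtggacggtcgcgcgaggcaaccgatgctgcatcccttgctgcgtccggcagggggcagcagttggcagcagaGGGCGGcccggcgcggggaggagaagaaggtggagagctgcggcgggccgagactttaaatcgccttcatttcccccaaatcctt
Col6a2, chr10:76623631-76623880, minus strand: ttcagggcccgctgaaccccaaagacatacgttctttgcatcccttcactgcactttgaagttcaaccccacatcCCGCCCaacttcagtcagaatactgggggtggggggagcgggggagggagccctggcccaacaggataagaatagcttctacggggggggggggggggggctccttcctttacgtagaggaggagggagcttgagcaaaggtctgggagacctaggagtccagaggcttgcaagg
Col3a1, chr1:45311288-45311537, plus strand: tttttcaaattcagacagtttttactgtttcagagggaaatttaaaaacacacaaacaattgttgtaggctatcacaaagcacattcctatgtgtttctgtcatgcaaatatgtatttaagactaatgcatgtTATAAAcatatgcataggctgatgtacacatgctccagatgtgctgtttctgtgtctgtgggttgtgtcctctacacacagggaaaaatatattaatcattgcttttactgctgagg
Some of the 17 risers have more than 1 window. CCAAT was in 7 of the 20 windows of risers, against 33.8% of all 32817 windows, GGGCGG in 12 of 20, against 32.7%, and TATAAA in 2 of 20, against 12.4%. GGGCGG was as common over the windows of all collagens, risers or not, at 22 of 38 (57.9%). A match is a description of the letters only.

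Genes that act on collagens or lie with them in the matrix were also counted, where 15.6% of all genes tested rose and 15.0% fell. Of 71 tested from a list of 76, 46 rose and 1 fell. These include the 10 laminin, nidogen and perlecan genes already counted above. The gene that fell was P4ha1, a subunit of the prolyl hydroxylase (log2 fold change -0.48 ± 0.15, edgeR adjusted p = 0.043). Of 29 enzymes and chaperones of collagen synthesis and crosslinking, 17 rose, among them the crosslinking oxidases Loxl2 (log2 fold change 3.21 ± 0.48), Lox (2.25 ± 0.33) and Loxl3 (2.06 ± 0.20). Of 9 collagen receptors 6 rose, with Ddr1 at 2.02-fold (log2 fold change 1.01 ± 0.08, edgeR adjusted p = 0.00021). Of 10 proteases and their inhibitors 5 rose, among them the gelatinase Mmp2 (log2 fold change 1.94 ± 0.15) and its inhibitor family member Timp1 (1.86 ± 0.34). Of 13 matrix proteins that bind collagen 10 rose. Tnc, a matrix glycoprotein of injured and developing tissue, went from 7.95, 8.47 and 6.604 CPM in the controls to 122.5, 70.2 and 109 CPM in L-DL KD (log2 fold change 3.71 ± 0.22, edgeR adjusted p = 8.4e-05). Bgn, a proteoglycan of fibrils, went from 34.7, 27.2 and 28.9 CPM to 213.5, 161 and 139 CPM (log2 fold change 2.50 ± 0.17, edgeR adjusted p = 0.00012).

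Cell type markers moved in the same libraries, to be read against the 15.6% of all genes that rose and the 15.0% that fell. Of 9 fibroblast and meningeal markers 5 rose (summed level 109 to 320 CPM in the controls and 163 to 431 CPM in L-DL KD, overlapping), of 7 mural cell markers 5 rose (232 to 259 and 345 to 442 CPM) and of 8 endothelial markers 4 rose (324 to 361 and 368 to 427 CPM). None of 3 smooth muscle, 6 choroid plexus and 4 ependymal markers had a call. All 8 microglial markers rose (1325 to 1655 and 2755 to 3563 CPM), as did all 4 oligodendrocyte precursor markers (241 to 251 and 352 to 454 CPM). Of 5 oligodendrocyte markers 1 rose, and of 5 astrocyte markers 1 rose and 2 fell, numbers too small to set apart from those shares. Of 8 excitatory neuron markers 6 fell, and of 8 interneuron markers 5 fell (633 to 707 and 246 to 454 CPM). The lists of fibroblast markers and of collagen-binding matrix share Dcn, Lum, Fmod and Ogn. The part of these cell types in the collagen values was not tested.

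The splicing table held 90 collagen events in 26 genes: 70 skipped exons, 9 pairs of mutually exclusive exons, 6 alternative 3′ splice sites, 2 alternative 5′ splice sites and 3 retained introns. Collagen events were thinly covered, with a median of 24.2 junction counts per library against 70.0 over all events. For 36 events the mean was under 20 counts and for 37 more 1 of the forms had a mean under 1, which left 17 events in 9 genes to test. No collagen event passed an adjusted p of 0.05 by edgeR or by limma, where 0.255% of 18829 events did by edgeR, and the smallest edgeR adjusted p was 0.294. At an unadjusted p under 0.05 there were 3 events, 17.6% of those tested against 13.3% of all, and 3 had groups apart, 17.6% against 18.4%. With so few counts, the lack of a call does not show that inclusion was the same in both groups. Among the 66 distinct skipped exons, 37.9% had a length divisible by 9 nt, against 14.2% of all skipped exons, and 9.09% were 54 nt long, against 0.766%.

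The exons below are shown because 1 has the smallest p of the collagen events, 1 is among the best covered events and has the same 54 nt length, and 1 lies in a transcript annotated as a target of nonsense-mediated decay. Sequences are from GENCODE transcripts on GRCm38. In the first 2, capitals mark codons that start with GG, the glycine codons of the helix repeat. In the last, capitals mark the exon and small letters 12 bases of the exons on either side.
Col23a1 exon 26 of 29, chr11:51576851-51576904, plus strand: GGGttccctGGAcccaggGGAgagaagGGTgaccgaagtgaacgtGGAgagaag
Col9a3 exon 5 of 32, chr2:180601582-180601635, plus strand: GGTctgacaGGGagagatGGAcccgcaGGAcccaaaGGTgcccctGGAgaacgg
Col4a1 exon 50 of 53, chr8:11204536-11204552, minus strand: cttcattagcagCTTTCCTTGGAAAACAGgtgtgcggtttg
The Col23a1 exon holds 5 such codons among its 18 and the Col9a3 exon 6 among its 18.

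PSI is the share of transcripts that include a segment, after each count is divided by the effective length of its form. For the Col23a1 exon, PSI was 1 in all 3 controls and 1, 0.877 and 0.623 in the L-DL KD libraries, as listed, on 11 to 55 counts. The change of -0.167 had an unadjusted edgeR p of 0.020 (adjusted p = 0.294), and without the third L-DL KD library the change was -0.0615. For the 17 nt exon of Col4a1, PSI was 0.394, 0.421 and 0.563 in the controls and 0.303, 0.125 and 0.278 in L-DL KD, on 51 to 117 counts. Every L-DL KD library lay below every control, the mean went from 0.460 ± 0.091 (SD, n = 3) to 0.235 ± 0.096 (SD, n = 3), and the edgeR p was 0.029 unadjusted and 0.327 adjusted. For a 100 nt exon of Col16a1, PSI was 0.107, 0.319 and 0.0910 in the controls and 0.0550, 0.0218 and 0.0362 in L-DL KD. These values rest on 6 to 34 counts, with an edgeR p of 0.042 unadjusted and 0.362 adjusted. Without the second control library, the highest, the change went from -0.135 to -0.0615. The best covered events were included almost throughout: a 173 nt exon of Col4a1 at a PSI of 0.988 to 1, and exons of Col9a3 of 55 nt (0.986 to 1) and 54 nt (0.977 to 1).

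**Figure D5:**
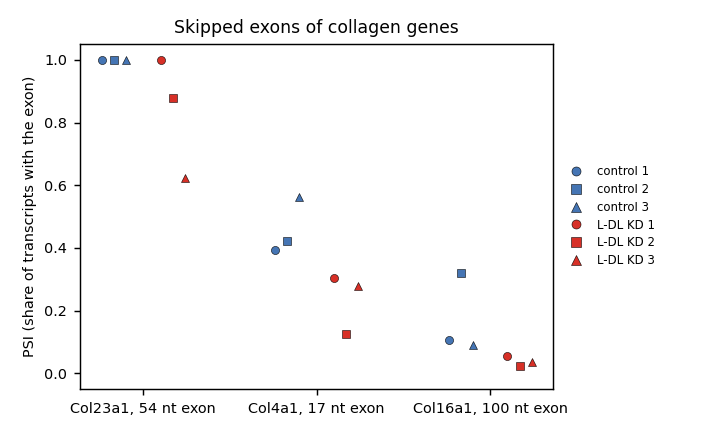
PSI of the 3 skipped exons of collagen genes with an unadjusted edgeR p under 0.05, in each library (blue, control; red, L-DL KD; circle, square and triangle, the listed order in the splicing table, which carries no replicate numbers). For Col4a1 and Col16a1 the L-DL KD libraries lie below the controls, and for Col23a1 1 L-DL KD library is at 1 like the controls; none passed the adjusted threshold.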

How the data were processed

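The authors deposited gene-level read counts without normalization, from poly(A) RNA sequenced as 150 nt read pairs (GRCm38; HISAT2 2.1.0, HTSeq 0.6.1 and Bowtie 1.1.2 in the submitters' processing notes; strand use not given in the sources used here). They also deposited rMATS (4.1.0) junction counts of the inclusion and skipping forms, as counts with their effective lengths, and PSI, a fraction. The p-values, FDR and PSI differences in that table are the authors' own comparison and were not used. The table names its sets only SAMPLE_1 and SAMPLE_2. Set 1 was taken as L-DL KD from the methods' definition of the PSI change, and the deposited difference was set 1 minus set 2 in all 40961 events, so PSI directions rest on that reading. GENCODE M21 gave symbols and exon lengths for 52403 of 52550 genes.

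A gene entered the quasi-likelihood test of edgeR (4.0.16, TMM, R 4.3.3) when 3 or more libraries held 10 counts or more, with Benjamini-Hochberg adjustment over all genes tested. CPM are TMM-scaled. Events needed on average 20 counts in a library and 1 of either form, and were tested with edgeR on 12 columns, adjusted over all events. Alternatives were DESeq2 (1.42.0), limma (3.58.1; pseudocount 0.5 on event ratios), scaling by library size, looser and stricter filters, a block for the replicate number, and left-out libraries. Both tests were tested on simulated data. The simulation for events was changed from one with a fixed spread to one with the spread of the data after the first gave no calls.

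Values by library are given for up to 12 rising and 12 falling collagens with the largest changes among those called with groups apart, the 5 with the highest control level per length, the chains of types I, IV, V and VI, events with an unadjusted p under 0.05, the 3 best covered other events, and up to 3 called genes per list. Members and lists were chosen with earlier results of these data known. Col8a1, Col8a2, Col4a3, Col4a4 and the other genes given with values beyond this rule were chosen after their values were seen.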

Additional observations from a re-analysis of the deposited data

How the results depend on the processing

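Of the 24 called collagens, 16 (14 higher, 2 lower) kept their call under all 13 alternatives, and none of the 24 reversed. The counts stayed within 1.5 times: 15 to 21 higher and 2 to 4 lower with a library left out, 34 to 47 genes of the pathway list and 32 to 53 markers changed, and 0 events. The other 8 lost their call under at least 1 alternative, at adjusted p from 0.056 upward. Col4a5 lost it without control 1, control 2 or L-DL KD 3 (adjusted p 0.070 to 0.097), Col15a1 without control 3 (0.056), Col18a1 without control 1 or 2 (0.065 to 0.066) and Col19a1 without control 3, alone or with L-DL KD 1 (0.058 to 0.063). Col9a1 and Col13a1 lost it without any single library but L-DL KD 3, and without control 3 and L-DL KD 1 together (0.060 to 0.161 and 0.065 to 0.0999). Col20a1 lost it with limma voom, without any control, without L-DL KD 2 and without both libraries (0.072 to 0.143), and Col23a1 with voom, with the replicate block, without any control and without L-DL KD 2 or 3 (0.058 to 0.117). Under some alternatives Col4a1, Col6a6, Col8a2, Col11a1 and Col24a1, which had no call, gained a call. Leaving out control 3 and L-DL KD 1 together was chosen after seeing the data. Among the genes named by the rule, signs turned only in 3 without a call. With a library left out, the log2 fold change of Col9a3 ranged from -0.53 (without L-DL KD 1) to 0.73 and was -0.12 without both libraries. That of Col4a2 ranged from -0.046 (without control 2; -0.018 without L-DL KD 1) to 0.19. That of Col6a3 ranged from -0.28 (without L-DL KD 1, and -0.0045 without control 3) to 0.66 and was -0.57 without both. Outside that rule, Col8a2 turned from 0.26 to -2.275 without L-DL KD 1 (edgeR adjusted p = 0.014). Without both libraries it was -1.64 (edgeR adjusted p = 0.027). The cause was not tested.

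Samples of the 2 groups share replicate numbers. Same-numbered samples correlated at 0.054, 0.127 and -0.107 in their deviations from the group means, and differently numbered ones at -0.176 to 0.124. These values do not show whether same-numbered samples share more than a number. With the replicate block, 21 collagens were higher (20 of them among the 21) and 4 lower, 49 pathway genes and 42 markers were called, and Col4a1 passed (adjusted p = 0.031). No paired analysis was possible for the events because their columns carry no replicate numbers. Of the 73 events that were not tested, 36 had a mean under 20 counts and 37 had enough counts but 1 form with a mean under 1.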
